A study of Mus musculus and Homo sapiens with 14 samples.

Results

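Cells of NKYS, a line from human NK/T-cell lymphoma, were compared with and without azacytidine by RNA sequencing. The comparison takes 4 of the 14 samples of a study on inhibitors of DNA methylation in NK/T-cell lymphoma. The other samples are mouse EL4 tumours and EG7-OVA cells, a mouse T-cell lymphoma line that expresses ovalbumin. Both NKYS groups had genotype WT and held 2 libraries each. One group received DMSO and the other azacytidine at 1.0 µM, given at 0, 24 and 48 h, and cells were harvested at 72 h. Which of 2 culture media, 1 of them with added IL-2, was used for NKYS is not clear from the labels. The labels do not say whether the 2 libraries of a group came from separate cultures, so p-values measure the spread between these libraries, which may be technical.

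The members are the rows of the NKYS gene table with 10 or more reads summed over the 4 libraries, without the small RNAs 7SK (Rn7sk) and 7SL (Rn7s1 and Rn7s2). There are 3642 such rows of 43432. The rows are mouse genes although the cells are human, so a gene holds reads where its human transcript is close enough in sequence to the mouse gene model. A gene without reads may be expressed, and closely related copies can trade reads. A total of 80 rows had exactly 10 reads and 94 rows just outside the limit had 9.

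Azacytidine is an analogue of cytidine that is built into RNA and, after reduction, into DNA. In DNA it traps the DNA methyltransferases, so methylation is lost as cells divide. Methylation of CG dinucleotides at promoters goes with stable silencing, and germline genes and genes of the embryonic body plan are among those held silent in blood cells. Methylation itself was not measured here.

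Promoters of 3 genes that rose are shown because the enzymes that the drug traps act on CG dinucleotides: Sox2, a transcription factor of pluripotent and neural stem cells, Hoxd10, a homeobox gene of limb and posterior body patterning, and Dazl, a germ-cell RNA-binding protein. The sequences are mouse sequences from RefSeq on GRCm38.p6, from 250 bases before to 50 bases after the start that RefSeq lists. Gene positions given below are from GENCODE, whose starts can differ. The Sox2 window ends before the GENCODE start of Sox2 at 34650405. Capitals mark every CG. The human promoters of the NKYS cells were not used here. The Sox2 window is chr3:34649745-34650044 on the plus strand with 27 CG, the Hoxd10 window is chr2:74691641-74691940 on the plus strand with 22 CG, and the Dazl window is chr17:50293571-50293870 on the minus strand with 28 CG.

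Sox2: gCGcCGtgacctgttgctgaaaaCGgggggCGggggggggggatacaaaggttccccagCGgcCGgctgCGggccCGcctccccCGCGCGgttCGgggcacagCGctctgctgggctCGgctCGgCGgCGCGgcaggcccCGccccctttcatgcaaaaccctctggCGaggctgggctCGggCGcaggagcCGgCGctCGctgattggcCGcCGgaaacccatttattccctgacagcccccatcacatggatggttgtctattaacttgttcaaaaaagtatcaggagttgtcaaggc

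Hoxd10: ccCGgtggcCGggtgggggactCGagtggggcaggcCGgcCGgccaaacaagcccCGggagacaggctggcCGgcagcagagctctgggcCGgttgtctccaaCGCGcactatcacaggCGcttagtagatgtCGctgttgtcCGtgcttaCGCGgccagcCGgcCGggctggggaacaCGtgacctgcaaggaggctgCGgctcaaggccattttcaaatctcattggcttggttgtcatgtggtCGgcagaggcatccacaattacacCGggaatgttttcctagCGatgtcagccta

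Dazl: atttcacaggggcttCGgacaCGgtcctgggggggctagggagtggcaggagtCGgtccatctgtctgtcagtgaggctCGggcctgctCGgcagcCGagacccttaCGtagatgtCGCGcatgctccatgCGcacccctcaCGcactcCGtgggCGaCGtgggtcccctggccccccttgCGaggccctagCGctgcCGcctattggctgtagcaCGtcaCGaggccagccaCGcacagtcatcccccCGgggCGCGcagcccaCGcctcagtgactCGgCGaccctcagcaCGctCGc

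At least 1 CG stood in 94.2% of the 27025 mouse promoters of this length, with a median of 7. The 2546 promoters matched among 3174 protein-coding rows tested had a median of 25. Among the 21 genes that rose from no read in DMSO, 20 were matched, with a median of 21 and a range of 2 (Arhgap5 and Nr2f2) to 45 (Wnt11). The letter count therefore did not set these genes above the other rows tested. A CG is the same on both strands, and its presence says nothing about methylation in these cells.

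The 4 libraries held 1571555 to 1842159 reads, of which 828449 to 988725 fell on the rows tested. The rest lay mostly on 7SK, with 18.6% to 32.9% of all reads, and 7SL, with 12.2% to 19.4%. Replicates correlated across genes at r = 0.976 with DMSO and 0.969 with azacytidine in logCPM, and differed by more than counting noise, with a chi-square per degree of freedom of 2.30 and 3.60. One azacytidine library stood apart by a single predicted small RNA, Gm24447, which took 4.58% of its tested reads against 0.195% to 0.78% in the other 3. The labelled cell type could not be checked by most of its markers, since 21 of 33 markers of NK and T cells had no read, Cd3e, Klrd1, Ncr1, Gzmb and Prf1 among them. Ikzf1, a transcription factor of lymphoid cells, had 261 and 232 reads with DMSO and 212 and 170 with azacytidine. Markers of B cells had no read for 10 of 11 genes, the other being Ebf1 with 2 and 5 reads with DMSO and 12 and 14 with azacytidine (adjusted p = 0.108), and myeloid markers for 13 of 15. Genes that EG7-OVA cells express were looked up as a measure of reads from mouse cells. Gapdh, Cd3e, Cd3g and Lck were at 2600, 200, 210 and 243 CPM in EG7-OVA cells with azacytidine and had 0 reads in all 4 NKYS libraries. Ptprc, B2m and Coro1a, at 1193, 795 and 368 CPM there, had 2, 4 and 11 reads over the NKYS libraries. Of 2334 genes at 100 CPM or more in those EG7-OVA cells, 518 had no NKYS read (22.2%) and the rest had at least 1.

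With azacytidine, 92 rows were higher and 71 were lower than with DMSO at an adjusted p of 0.05 in edgeR's quasi-likelihood test. Rises in genes with few or no reads in the controls included Sox2, several homeobox genes, the germ-cell RNA-binding protein Dazl, the ligand Wnt11 and the small GTPases Rhob and Rab13. Among called genes, the largest falls included Adgrb3, by 7.41-fold, Rbpms, by 6.54-fold, and Tfap2b, by 4.03-fold. Beyond an absolute log2 fold change of 1 there were 45 higher and 13 lower rows, and within it 47 and 58.

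These calls are 4.48% of the rows tested, 2.53% higher and 1.95% lower. The median log2 fold change of all rows was 0.02. Of the calls, 83 higher and 67 lower rows were protein-coding, and 6 and 3 were pseudogenes, whose reads may come from their parent genes. The groups did not overlap in 1814 rows, 49.8% of those tested, so the absence of overlap alone says little with 2 libraries a side. Without either azacytidine library no row passed in edgeR, with 543 and 587 rows at an unadjusted p under 0.05, while DESeq2 called 60 without replicate 1 and 81 without replicate 2. In these fits DESeq2 gave no adjusted p for 283 and 2049 rows.

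**Figure D1:**
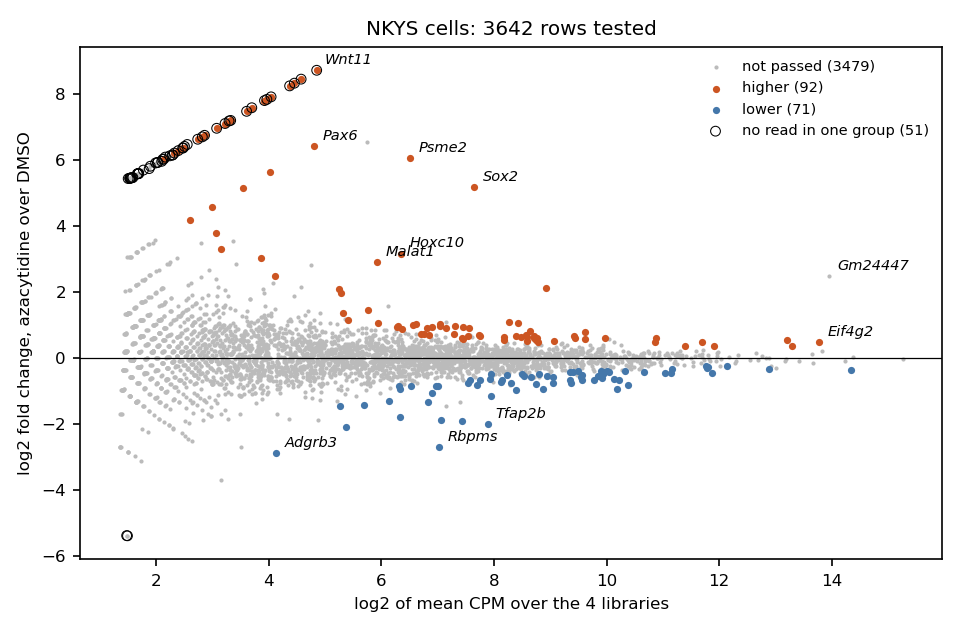
Log2 fold change, azacytidine over DMSO, against the log2 of the mean CPM (reads scaled to the library's reads on the rows tested), 1 point per row of the 3642 tested, coloured by call. The 92 higher rows include Sox2 at 5.18 and the 71 lower rows include Rbpms at -2.71. Circled rows had no read in 1 of the groups, so their height is set by the prior count of the fit and is no measured fold.

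A total of 49 rows had no read in either DMSO library, and 21 of them rose, all protein-coding. Their azacytidine reads ranged from 15 to 98 over both libraries. With the controls set at a floor of 3 reads over the group, these are rises of at least 5.73-fold to at least 37.5-fold. The filter sums reads over the 4 libraries, so a gene with no DMSO read could enter only through its azacytidine reads, and the direction of these 49 rows is set by that. In the opposite sense, 2 rows had no azacytidine read and neither passed (edgeR). At an unadjusted p under 0.05 there were 360 higher and 328 lower rows in all, and DESeq2 called 64 higher and 60 lower.

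**Figure D2:**
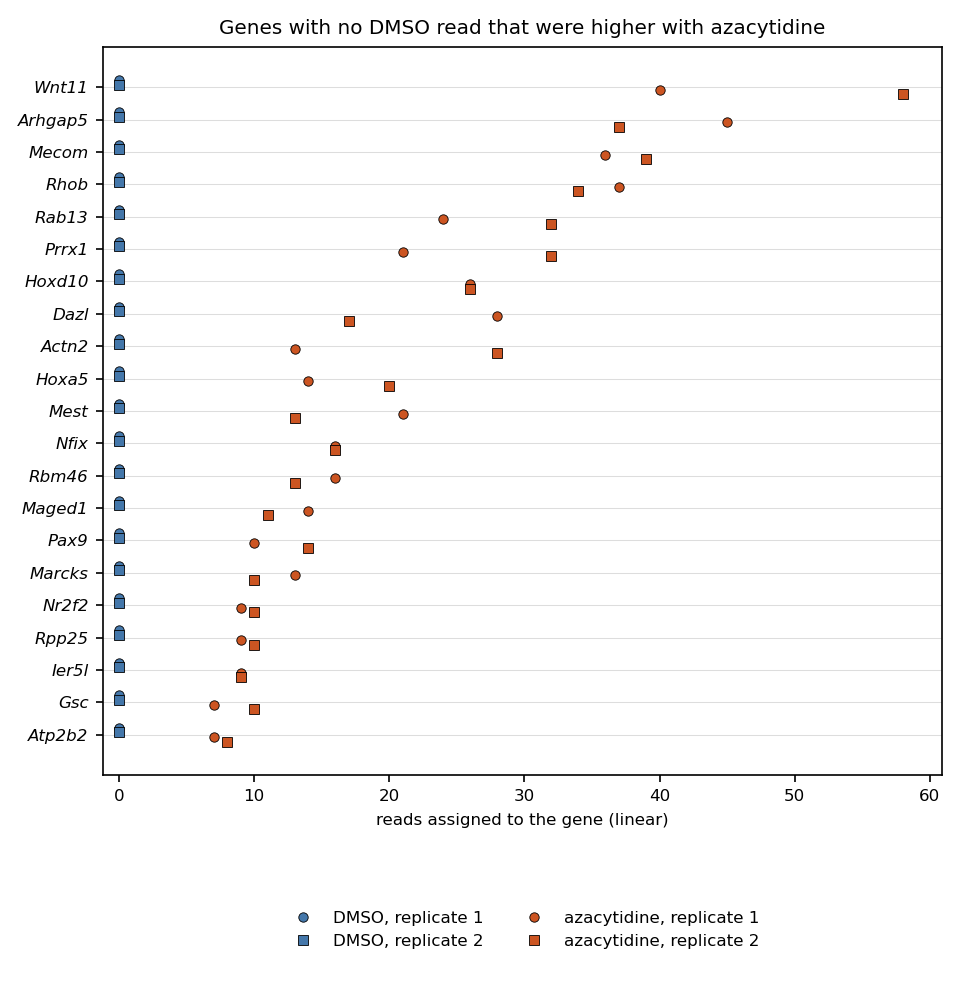
Reads per library for the 21 genes with no DMSO read that passed the test as higher with azacytidine, on a linear axis, with circles for replicate 1 and squares for replicate 2. Both azacytidine libraries held reads for each gene, from 7 in 1 library for Gsc and Atp2b2 to 58 for Wnt11.

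The gene with the smallest p was a transcription factor. Sox2 (chr3:34650405-34652461, GRCm38) had 9 and 12 reads with DMSO and 332 and 338 with azacytidine. Both treated libraries stood far above both controls, and the log2 fold change was 5.18 ± 0.20 (SE, adjusted p = 1.82e-06), a 36.2-fold rise. Sox2 fell outside the rule for named genes and was singled out after its values were seen. So were the other transcription factor, receptor, RNA-binding, ligand and small GTPase genes named here that are not stated to be among the largest changes. Mest, Maged1, Ier5l, Eef1g, Eif2s2, Hnrnpdl, Gm26315 and Gm24447, named below, were also chosen after their values were seen.

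Hoxc10, a posterior HOX gene, had 13 and 19 reads with DMSO and 139 and 113 with azacytidine, a log2 fold change of 3.16 ± 0.24 (SE, adjusted p = 0.000272). Pax6, the paired-box regulator of eye and brain, had 0 and 1 reads with DMSO and 46 and 49 with azacytidine. Its ratio was 109, with an exact counting interval of 19.1 to 4350 (95%), and its adjusted p was 0.000686. It was among the 12 largest rises, as were the HOX genes Hoxd10 and Hoxa5 and the mesenchymal homeobox gene Prrx1. These 12 are ranked by the fitted log2 fold change. For genes with no DMSO read that value depends on the prior count of the fit and is no measured fold. Hoxd10 (chr2:74691924-74695105) had 26 reads in each azacytidine library and none with DMSO, a rise of at least 19.9-fold (adjusted p = 0.00368). Hoxa5, with 14 and 20 reads against none, was at least 13.0-fold higher. Prrx1, with 21 and 32 against none, was at least 20.3-fold higher. Treated and control libraries stood apart for each of these genes, which the rule for the largest rises required for all but Hoxc10.

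Among HOX, SOX and PAX genes, 67 were in the table, 25 had no read and 17 were tested. Of these 7 rose and none fell (edgeR), beside 2.53% and 1.95% of all rows. This list was drawn up after values were seen, and genes read only in treated cells could enter it only as higher, so the count is a description. The other members that rose were Pax9, with 10 and 14 reads against none, and Hoxb9, with 3 and 7 reads with DMSO and 22 and 28 with azacytidine (log2 fold change 2.50 ± 0.51, SE, adjusted p = 0.0265, and 0.0554 in DESeq2). Among HOX genes with more reads in the controls, Hoxb7 had 149 and 203 reads with DMSO and 184 and 182 with azacytidine, a log2 fold change of 0.26 (adjusted p = 0.446). Hoxc4 had 172 and 168 reads with DMSO and 96 and 131 with azacytidine, a log2 fold change of -0.38 (adjusted p = 0.334). Their treated and control libraries overlapped for Hoxb7 and not for Hoxc4, and neither gene passed.

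**Figure D3:**
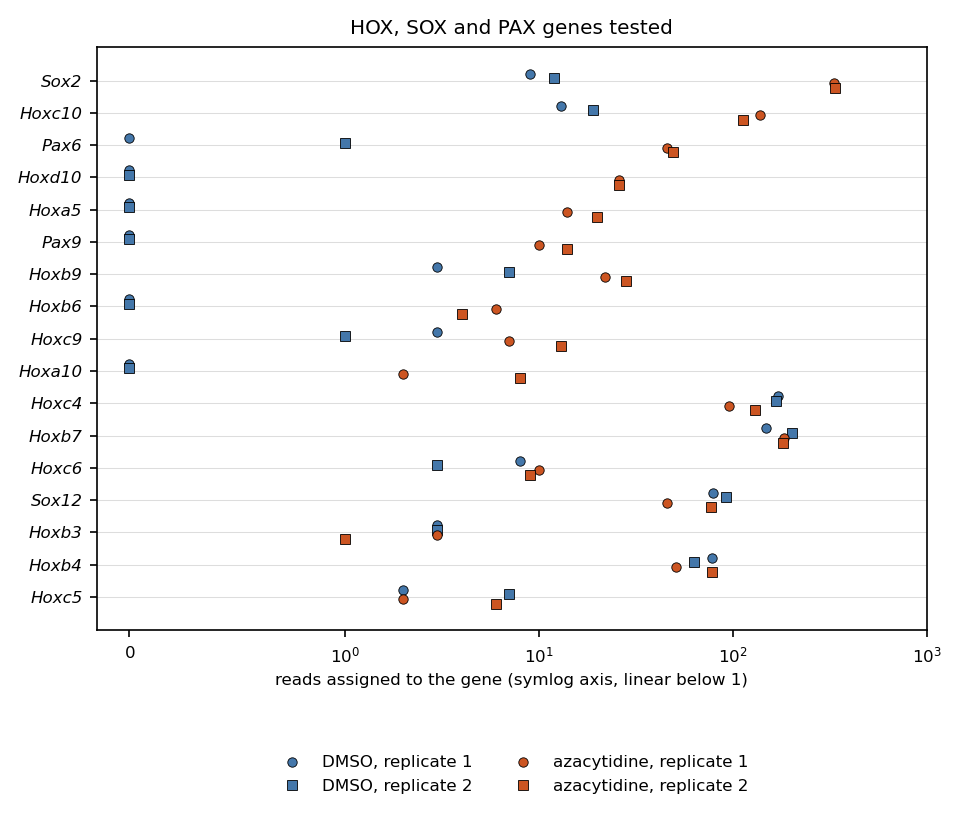
Reads per library for the 17 HOX, SOX and PAX genes tested, on an axis that is logarithmic above 1 and linear below, with DMSO in blue and azacytidine in orange. The top 7 genes rose, from Sox2 to Hoxb9, while genes such as Hoxb7 and Hoxb4 had overlapping reads in both groups.

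Of 24 other homeobox genes tested, 4 rose and 0 fell (edgeR): Meis1, Prrx1, Gsc and Pou2f2. This list too was drawn up after values were seen, and Prrx1 and Gsc had no DMSO read and could enter only as higher, so the count is set beside the 2.53% of all rows that rose as a description alone. Meis1, a cofactor of HOX proteins, had 1 and 0 reads with DMSO and 31 and 24 with azacytidine, a ratio of 63.1 (95% counting interval 10.9 to 2540, adjusted p = 0.00371). Gsc, the organizer gene goosecoid, had 7 and 10 reads against none (adjusted p = 0.0433, and 0.0689 in DESeq2). Pou2f2, the lymphoid factor OCT2, had 0 and 1 reads with DMSO and 11 and 9 with azacytidine (adjusted p = 0.0475, and 0.214 in DESeq2). The last 2 calls thus depended on the test. Among other transcription factors Mecom, the zinc-finger protein EVI1 and among the largest rises, had 36 and 39 reads against none, at least 28.7-fold higher. Nfix, a nuclear factor I protein, had 16 in each treated library against none and was at least 12.2-fold higher. Nr2f2, a nuclear receptor, had 9 and 10 against none and was at least 7.26-fold higher. Thrb, the thyroid hormone receptor beta, had 2 and 4 reads with DMSO and 26 and 19 with azacytidine, a log2 fold change of 3.05 ± 0.54 (SE, adjusted p = 0.0156).

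Several genes of RNA-binding proteins passed the test. Dazl (chr17:50279395-50293636), needed for germ-cell development and among the largest rises, had 28 and 17 reads with azacytidine and none with DMSO, at least 17.2-fold higher (adjusted p = 0.00589). Rbm46, another germ-cell RNA-binding protein, had 16 and 13 reads against none and was at least 11.1-fold higher. Elavl2, a neuronal RNA-binding protein, had 1 read in each DMSO library and 15 and 12 with azacytidine (adjusted p = 0.0215, and 0.0971 in DESeq2). Cpeb4, which binds cytoplasmic polyadenylation elements, had 54 and 71 reads with DMSO and 132 and 87 with azacytidine, a log2 fold change of 1.00 ± 0.22 (SE, adjusted p = 0.0391, and 0.0727 in DESeq2). Rbpms, whose protein binds RNA in many tissues, fell. Of 16 such genes tested, a list drawn up after values were seen, 4 rose and 1 fell, beside 2.53% and 1.95% of all rows. Dazl and Rbm46 entered through their azacytidine reads alone. Of 27 germline and cancer-testis genes in the table, 19 had no read and 3 were tested, of which Dazl alone passed (edgeR). Mest, an imprinted gene, had 21 and 13 reads against none, and Maged1, a member of the MAGE family, had 14 and 11 against none. Both rose, by at least 13.0-fold and at least 9.56-fold.

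Signalling, membrane and actin genes made up 5 more of the 12 largest rises, from Wnt11 to Actn2. Wnt11, a secreted WNT ligand, had 40 and 58 reads with azacytidine and none with DMSO, at least 37.5-fold higher (adjusted p = 0.00151) and the highest of these bounds. Arhgap5, a GTPase-activating protein, had 45 and 37 reads against none and was at least 31.3-fold higher (adjusted p = 0.00124). Rhob, a small GTPase of endosomes, had 37 and 34 reads against none and was at least 27.1-fold higher. Rab13, a small GTPase of membrane traffic, had 24 and 32 reads against none and was at least 21.4-fold higher. Actn2, the alpha-actinin of muscle, had 13 and 28 reads against none. Tgfb3, a ligand of the TGF-beta family, had 0 and 1 reads with DMSO and 8 and 18 with azacytidine (adjusted p = 0.0398, 0.105 in DESeq2 and 0.101 in limma-voom). In each of these genes both treated libraries stood above both controls, which the rule for the largest rises required for all but Tgfb3. The treated replicates were farther apart for Tgfb3 and Actn2 than for Rhob and Arhgap5.

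Of 44 small GTPases tested, a list drawn up after values were seen, 3 rose and 5 fell, beside 2.53% and 1.95% of all rows. The median log2 fold change was -0.02, and Rhob and Rab13 entered through their azacytidine reads alone. Rab2a, which acts between endoplasmic reticulum and Golgi, had 154 and 164 reads with DMSO and 241 and 210 with azacytidine, a log2 fold change of 0.70 ± 0.12 (SE, adjusted p = 0.0138). Rragc, a RAG GTPase that signals amino acids to mTORC1, had 442 and 429 reads with DMSO and 217 and 173 with azacytidine, a log2 fold change of -0.96 ± 0.12 (SE, adjusted p = 0.00275). Rap2a, Rhot1, Rab33a and Arl4c were the other 4 that fell. The calls of Rhot1 and Rab33a did not pass in DESeq2, with adjusted p of 0.0533 and 0.124.

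Psme2, a subunit of the proteasome activator PA28 that serves MHC class I presentation, had 1 and 4 reads with DMSO and 109 and 194 with azacytidine. The log2 fold change was 6.06 ± 0.54 (SE, adjusted p = 0.000428). The mouse genome holds a near-identical copy, so the share of reads given to this row is uncertain. It was the 1 gene of MHC class I presentation that passed among 4 tested, beside 4.48% of all rows. The other 3 were the chaperones Calr, Canx and Pdia3, and 9 of 19 genes of this list had no read. B2m, the light chain of MHC class I, had 4 reads in all and was not tested.

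Among called genes at 20 CPM or more without overlap, predicted models left out, the largest falls were those of Adgrb3 and Rbpms. Rows that did not pass could lie lower, such as a translation factor at a log2 fold change of -5.40. Adgrb3, an adhesion receptor of neurons, had 29 and 32 reads with DMSO and 5 and 2 with azacytidine, a log2 fold change of -2.89 ± 0.49 (SE, adjusted p = 0.0132). Rbpms had 221 and 223 reads with DMSO and 32 and 27 with azacytidine, a log2 fold change of -2.71 ± 0.17 (SE, adjusted p = 6.68e-05). Tfap2b (chr1:19208914-19238576), an AP-2 transcription factor of neural crest and kidney, had 370 and 376 reads with DMSO and 82 and 79 with azacytidine, a log2 fold change of -2.01 ± 0.12 (SE, adjusted p = 6.68e-05). Replicates of Rbpms and Tfap2b were close, and both treated libraries were far below both controls in all 3 genes.

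Arl4c, an ARF-like GTPase, had 257 and 279 reads with DMSO and 59 and 65 with azacytidine and fell by 1.91 on the log2 scale. Hecw2, a ubiquitin ligase, had 196 and 219 reads with DMSO and 52 and 45 with azacytidine and fell by 1.90. Magi2, a scaffold protein of cell junctions, had 58 and 75 reads with DMSO and 14 and 13 with azacytidine and fell by 2.09. These are among the 12 largest falls. So were Tmem65, a protein of mitochondria, with 139 and 106 reads against 33 and 29, and Srpk2, a kinase of splicing factors, with 348 and 322 against 129 and 134. Nrg1, the ligand neuregulin, had 164 and 154 reads with DMSO and 54 and 56 with azacytidine and fell by 1.33. Pde4d, a phosphodiesterase that breaks down cAMP, had 83 and 115 reads with DMSO and 41 and 28 with azacytidine and fell by 1.32. Sulf1, which trims heparan sulfate, had 86 and 63 against 26 and 22 and fell by 1.43. Dennd1a, an activator of RAB GTPases, fell by 1.46 with 58 and 53 reads against 17 and 18, and did not pass in DESeq2 (adjusted p = 0.0871). The rule that chose these 12 took only genes whose treated and control libraries did not overlap.

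**Figure D4:**
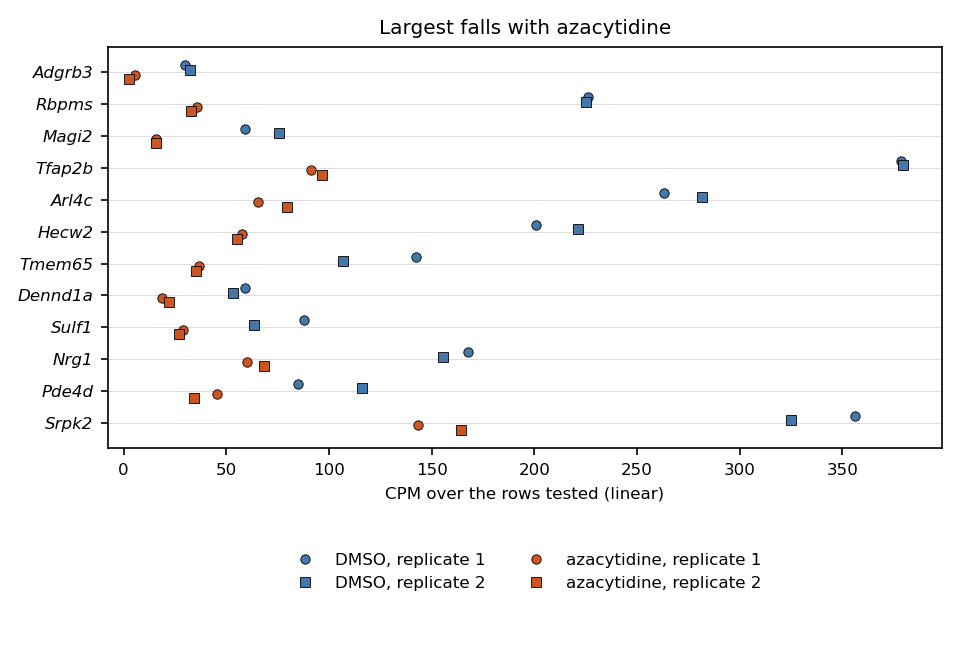
CPM per library (reads scaled to the library's reads on the rows tested, linear axis) for the 12 largest falls among called genes at 20 CPM or more in DMSO, sorted by log2 fold change. The azacytidine libraries lie left of both DMSO libraries in each gene, as the rule of choice required, and are farthest from them in CPM for Tfap2b.

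Among genes of protein folding, 24 heat shock proteins and chaperonin subunits were tested. Of these 3 rose, 0 fell (edgeR) and 21 did not pass, beside 2.53% higher and 1.95% lower over all rows, with a median log2 fold change of 0.25 against 0.02 for all rows. Hspa2, an HSP70 of the testis, had 15 and 16 reads with DMSO and 56 and 50 with azacytidine, a log2 fold change of 1.96 ± 0.28 (SE, adjusted p = 0.00575). Hsp90aa1, the inducible HSP90, had 301 and 267 reads with DMSO and 500 and 371 with azacytidine, a log2 fold change of 0.81 ± 0.13 (SE, adjusted p = 0.0112). Dnaja1, an HSP40 co-chaperone, had 255 and 130 reads with DMSO and 411 and 314 with azacytidine. Its control libraries differed from each other by more than those of the other 2 genes, and its call did not pass in DESeq2 (adjusted p = 0.314) or among rows of 100 or more reads (adjusted p = 0.0589).

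Translation factors split. Of 40 tested, Eif4g2 and Eif5 rose and Eif5a, Eef1g and Eif2s2 fell, beside 2.53% higher and 1.95% lower over all rows. Eif4g2, a scaffold of initiation without the cap, had 11515 and 11535 reads with DMSO and 14956 and 12934 with azacytidine, a log2 fold change of 0.47 ± 0.04 (SE, adjusted p = 0.000428). Eef1g, a subunit of the elongation factor complex, had 4724 and 4847 reads with DMSO and 3674 and 3409 with azacytidine, a log2 fold change of -0.24 ± 0.06 (SE, adjusted p = 0.0475). Its fold change stayed between -0.21 and -0.25 in every setting that ended the call, which were 12, among them DESeq2 (adjusted p = 0.0554) and the 4 edgeR fits without 1 library. Eif2s2 fell by 0.39 and Eif5a by 0.29, with adjusted p of 0.0498 and 0.046, and neither passed where 7SK and 7SL were kept (adjusted p = 0.0617 and 0.0767). None of 30 ribosomal protein genes and none of 33 ubiquitin and proteasome genes passed in edgeR, beside 4.48% of all rows. Psme2 is on the class I list.

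Splicing genes were tested for 76 members, of which Ddx5 and Hnrnph2 rose and Snrpa1 and Hnrnpdl fell. This is near the 4.48% of all rows that passed. Ddx5, an RNA helicase, had 8634 and 8779 reads with DMSO and 10233 and 9131 with azacytidine, a log2 fold change of 0.35 ± 0.04 (SE, adjusted p = 0.00275). Snrpa1, a protein of the U2 particle, had 603 and 647 reads with DMSO and 387 and 336 with azacytidine, a log2 fold change of -0.59 ± 0.10 (SE, adjusted p = 0.0125). Treated and control libraries did not overlap for either gene. The list as a whole had a median log2 fold change of 0.03.

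Of 52 chromatin regulators 2 passed, near the 4.48% of all rows. Kat6b, a histone acetyltransferase, rose with 109 and 150 reads with DMSO and 233 and 192 with azacytidine (log2 fold change 0.91 ± 0.16, SE, adjusted p = 0.0163). Bmi1, a Polycomb protein, fell from 424 and 409 reads to 280 and 233 (log2 fold change -0.50 ± 0.11, SE, adjusted p = 0.0369, and 0.0795 in DESeq2). Of 17 replication-dependent histone genes 2 fell, Hist1h2an and Hist1h2bb, by 0.67 and 0.76 on the log2 scale, beside 1.95% of all rows. Of 8 replication-independent histone genes H3f3b rose, by 0.37, beside 2.53% of all rows. Histone genes come in near-identical copies, so their rows are uncertain. Rbbp7, a histone chaperone in complexes that silence chromatin, was the 1 of 9 silencers of endogenous retroviruses that passed, with 2427 and 2597 reads with DMSO and 1772 and 1690 with azacytidine (log2 fold change -0.34).

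Genes of DNA methylation, the pathway the drug acts on, gave no call in edgeR among 9 tested, with a range of log2 fold change from -0.44 to 0.95. Dnmt3a, a de novo methyltransferase, had 6 and 16 reads with DMSO and 15 and 22 with azacytidine (adjusted p = 0.377). Uhrf2 had 266 and 206 reads with DMSO and 182 and 129 with azacytidine (adjusted p = 0.235). Dnmt1 had 2 reads in all and Dnmt3b and Uhrf1 had none, so these genes could not be tested. Of the DNA methyltransferases, which the drug traps, Dnmt3a alone was tested. No call was made in edgeR either among 7 nucleoside genes, 5 genes of p53 and its targets, 11 of replication and 8 of mitosis. The same held for 9 genes of DNA damage, 7 of the BCL2 and caspase families and 8 of the integrated stress response. With 4.48% of all rows called, lists as short as these can hold no call without differing from the other rows. Phlda3, a p53 target, had 46 and 37 reads with DMSO and 61 and 69 with azacytidine (log2 fold change 0.85, adjusted p = 0.0861, and 0.0363 with no filter on low counts). Ncapg, a condensin subunit of mitosis, had 70 and 76 reads with DMSO and 105 in each azacytidine library, a log2 fold change of 0.72 ± 0.17 (SE, adjusted p = 0.0513). It was close to the threshold and passed in 7 other settings, with adjusted p from 0.0157 (replicate block) to 0.0484 (library size only).

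Interferon-stimulated genes could not be examined: 43 of 46 had no read and none reached 10. Of 13 genes of double-stranded RNA sensing and handling, Ddx3x alone passed (edgeR), beside 4.48% of all rows. Ddx3x, an RNA helicase often mutated in NK/T-cell lymphoma, had 7810 and 7294 reads with DMSO and 10305 and 9028 with azacytidine, a log2 fold change of 0.55 ± 0.05 (SE, adjusted p = 0.000647). It has a close paralog, so its row may hold reads of both. It was also the 1 call among 7 tested genes listed as methylated or deleted in this lymphoma. This stands beside 4.48% of all rows, and 7 of the 17 genes listed had no read. Ifih1, a sensor of double-stranded RNA, had 9 reads in all, 1 below the limit.

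In cytokine signalling, Socs3, a feedback inhibitor of JAK and STAT signalling, had 556 and 574 reads with DMSO and 741 and 941 with azacytidine, a log2 fold change of 0.78 ± 0.14 (SE, adjusted p = 0.0177). It was the 1 of 8 genes of the IL-2 receptor, JAK and STAT list that passed. This and the list counts that follow stand beside 4.48% of all rows, and counts this small say little about a family. Btg1, an antiproliferative gene of lymphocytes, had 510 and 532 reads with DMSO and 683 and 749 with azacytidine and rose by 0.66 on the log2 scale, as the 1 call among 14 immediate early and NF-kB genes. Myc, from the fixed set, had 9 and 2 reads with DMSO and 2 in each treated library (adjusted p = 0.561). Pgam1, a glycolytic enzyme, had 1618 and 1736 reads with DMSO and 760 and 871 with azacytidine, a log2 fold change of -0.83 ± 0.11 (SE, adjusted p = 0.00375), the 1 call among 9 genes of glycolysis and hypoxia. Of 33 cytoskeletal genes, Tubb3, a neuronal tubulin, rose by 0.59 and Arpc2 and Actr3, subunits of the ARP2/3 complex, fell by 0.68 and 0.63. The call of Actr3 did not pass in DESeq2 (adjusted p = 0.0631). Of the 5 NK and T cell markers tested none passed. Eomes, a transcription factor of NK cells, had 23 and 19 reads with DMSO and 7 and 10 with azacytidine (log2 fold change -1.09 ± 0.45, SE, adjusted p = 0.227).

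Among RNAs that are not translated, Malat1, a nuclear long non-coding RNA, had 14 reads in each DMSO library and 158 and 31 with azacytidine. Both treated libraries were above the controls, but the treated replicates were far apart. The log2 fold change was 2.91 ± 0.65 (SE, adjusted p = 0.0392), with an adjusted p of 0.10 in DESeq2 and 0.19 in limma-voom. Gm26315, a predicted small RNA, had 192 and 168 reads with DMSO and 939 and 440 with azacytidine (adjusted p = 0.00334). Gm24447 had 7581 and 1925 reads with DMSO and 6540 and 37968 with azacytidine and did not pass (log2 fold change 2.47 ± 0.78, SE, adjusted p = 0.12). It passed with the replicate block (adjusted p = 0.0098), with no filter on low counts, and without DMSO replicate 1 (4.14e-06) or replicate 2 (0.011). Its high library is the azacytidine replicate 2. With all rows of this class left out, a setting added after the data were seen, 103 rows were higher and 75 were lower.

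The same drug was given to EG7-OVA cells at 1.5 µM on the same schedule. The dose differs, so a difference between lines is of line and dose together. Over the 3268 genes tested in both tables, 13.6% rose and 11.8% fell in EG7-OVA cells. Of the 76 NKYS rises found in both tables, 25 rose, 8 fell and 43 did not pass in EG7-OVA cells. Of the 65 NKYS falls, 18 fell, 8 rose and 39 did not pass. The 16 genes that rose from no DMSO read in NKYS and were in both tables included 7 that rose and 0 that fell in EG7-OVA cells. Some, such as Prrx1 with 2 and 0, had almost no counts in the EG7-OVA controls, so a fall could scarcely be called there. Those that did not pass in EG7-OVA cells included Arhgap5 (log2 fold change -0.11), Hoxa5 (0.27) and Mecom (-1.01). In EG7-OVA cells Dazl had 4 and 1 counts in the DMSO libraries against 635 and 712 in the treated ones. Rhob had 4 and 8 with DMSO and 291 and 221 with azacytidine. Hecw2, among the falls, had 5584 and 5226 with DMSO and 1504 and 1477 with azacytidine, a log2 fold change of -1.49 ± 0.12 (SE).

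The interaction between line and drug passed for 232 of the 3268 genes, 7.1%, of which 101 had the higher log2 fold change in NKYS and 131 in EG7-OVA cells. In 172 of these all groups were above the floor of 3 reads. Psme2 did not pass in the mouse line: its counts were 1549 and 1356 with DMSO and 1286 and 1194 with azacytidine, a log2 fold change of 0.14 ± 0.25 (SE). The difference of NKYS minus EG7-OVA was 5.97 (95% interval 4.58 to 7.37). Rbpms in EG7-OVA cells had 556 and 800 counts in the DMSO libraries against 637 and 609 in the treated ones, a difference of -2.95 (95% interval -3.72 to -2.18). Thrb in EG7-OVA cells had 548 and 531 counts in the DMSO libraries against 161 and 220 in the treated ones, a difference of 4.23 (95% interval 3.01 to 5.45). Thrb thus rose in 1 line and fell in the other. Leaving out 1 NKYS library brought the 232 to between 73 and 138.

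**Figure D5:**
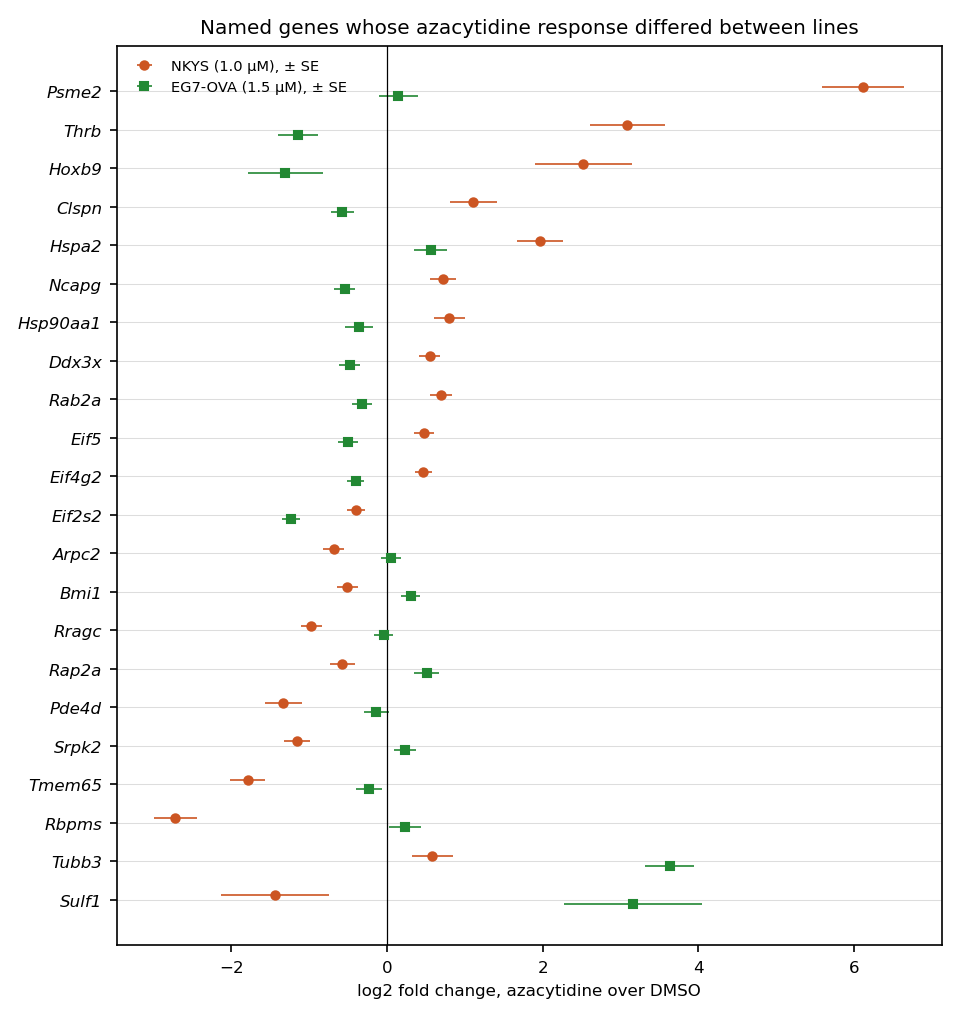
Log2 fold change with its SE, azacytidine over DMSO, in NKYS cells (circles, 1.0 µM) and EG7-OVA cells (squares, 1.5 µM) for the 22 named genes that passed the interaction test with counts above the floor. These genes were named by their NKYS values, so the NKYS side is selected. Psme2, at the top, has the widest gap upwards and Sulf1, at the bottom, the widest downwards, and the lines have opposite signs in genes such as Thrb, Ddx3x and Eif5.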

How the data were processed

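The deposited NKYS table holds raw counts per mouse Ensembl gene, for which the submitters' processing notes name the tools featureCounts, STAR, Trim Galore and fastp and the builds GRCh38 and mm10, with no role or version. The deposited EG7-OVA table holds counts by symbol, of which 97 of the authors' values used here were not whole, so these expected counts were rounded. 2 columns of decitabine libraries were not used. Symbols matched 42462 of 43432 identifiers, and positions and classes came from GENCODE on GRCm38.

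Rows with 10 or more reads over the 4 libraries entered, without 7SK and 7SL, which were also left out of library sizes (828449 to 988725 reads remained). Groups were compared in R 4.3.3 by edgeR 4.0.16 (TMM, glmQLFit, glmQLFTest, two-sided) with Benjamini-Hochberg adjustment over all 3642 rows and a threshold of 0.05. The biological coefficient of variation was 0.13. SE is the absolute log2 fold change over the square root of F. The fit kept edgeR's default prior count, and a prior count of 2 was used only for logCPM values. Bounds use a floor of 3 reads over the group, and ratios with 1 to 3 control reads have exact 95% intervals, which cover counting error only. The interaction was fitted on 8 libraries with TMM within each table.

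Members and lists were chosen with earlier results of these data known. Named genes were the 12 largest called changes per direction at 20 CPM or more without overlap (predicted models left out), up to 3 per list with the smallest p, and a fixed set. Genes with a call outside this rule are marked as chosen later, with values known. Not all genes of the rule are named. The test was tried on simulated data with known changes, with the outcome not reported here, so this adds nothing to the calls. Alternatives included DESeq2 1.42.0, limma-voom (limma 3.58.1), other scalings and filters, a replicate block and leaving out each library. Leaving out all misc_RNA rows, and DESeq2 without each library, were added after seeing the data.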

Additional observations from a re-analysis of the deposited data

Results flagged for a closer look

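For 22 named genes the response to azacytidine differed between NKYS and EG7-OVA cells in the interaction test of edgeR (adjusted p under 0.05), with line and dose not separable. These genes were named for their change or p in NKYS, or after NKYS values were seen. The NKYS side was thus selected, so their number cannot be set against the 7.1% of all 3268 genes that passed. The values are differences of log2 fold changes, NKYS minus EG7-OVA. Genes with the higher value in NKYS were Psme2 5.97, Thrb 4.23, Hoxb9 3.82, Clspn 1.68, Hspa2 1.40 and Ncapg 1.26, and with smaller differences Hsp90aa1 1.16, Ddx3x 1.03, Rab2a 1.02, Eif5 0.98, Eif4g2 0.87 and Eif2s2 0.84. Genes with the lower value in NKYS were Sulf1 -4.60, Tubb3 -3.05, Rbpms -2.95, Tmem65 -1.56 and Srpk2 -1.39, and with smaller differences Pde4d -1.19, Rap2a -1.08, Rragc -0.93, Bmi1 -0.82 and Arpc2 -0.74. Ncapg and Clspn, of mitosis and replication, did not pass in NKYS alone. Sulf1 in EG7-OVA cells had 1 and 6 counts in the DMSO libraries against 42 and 9 in the treated ones, so its difference rests on few counts. Near-identical copies make the value of Psme2 uncertain.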

How the results depend on the processing

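The 163 calls (92 higher, 71 lower) became 337 (193, 144) with no filter on low counts, 317 (168, 149) with the replicate block and 58 (45, 13) with an absolute log2 fold change above 1 also required. The replicate numbers were not shown to pair the libraries: same-numbered libraries correlated at -0.0214 in their deviations from the group means, and there were only 2 pairs. Leaving out 1 library gave 0 to 160 calls in edgeR (0 to 94 higher, 0 to 74 lower), with 0 where either azacytidine library was left out, and the lone library was assumed to vary like the other group. The lowest adjusted p was then 0.118 and 0.109, and 160 and 161 of the 163 had an unadjusted p under 0.05. In DESeq2 the same fits gave 60 (29, 31) and 81 (26, 55) calls without azacytidine replicate 1 and 2, and 26 (15, 11) and 19 (10, 9) without DMSO replicate 1 and 2. In the same order, these DESeq2 fits gave no adjusted p for 283, 2049, 1130 and 1342 of the 3642 rows. All other settings lay between 123 (100 or more reads) and 219 (protein-coding genes only), with 124 in DESeq2, 178 without misc_RNA rows and 156 with 7SK and 7SL kept. The interaction count of 232 fell to 73 to 138 with 1 NKYS library left out. Hells, a chromatin remodeller of DNA methylation that did not pass, had a log2 fold change of 0.10 that ranged from -0.25 without azacytidine replicate 1, reversed in both edgeR and DESeq2, to 0.36 without replicate 2. Among genes named, calls lost in DESeq2 were those of Actr3, Cpeb4, Rhot1, Hoxb9, Tgfb3, Gsc, Malat1, Eef1g, Bmi1, Ier5l, Dennd1a, Dnaja1, Elavl2, Hnrnpdl, Pou2f2 and Rab33a, and Tgfb3, Malat1, Elavl2 and Pou2f2 were also lost in limma-voom. The causes were not tested. Depth limits genes of few reads: with fewer than 10 reads nothing was tested, and an absent read does not show an absent transcript.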

Other observations

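Rows outside the rule for named genes include Rpp25, a subunit of the enzymes that process transfer and ribosomal RNA, with 9 and 10 reads with azacytidine and none with DMSO, at least 7.26-fold higher. Marcks, an actin-binding substrate of protein kinase C, had 13 and 10 reads against none and was at least 8.79-fold higher. Atp2b2, a calcium pump of the plasma membrane, had 7 and 8 reads against none and was at least 5.73-fold higher, with an adjusted p of 0.0498 in edgeR and 0.0518 where 7SK and 7SL were kept. Some homeobox genes with no DMSO read held reads in both treated libraries and did not pass: Six3 had 9 and 6 reads (adjusted p = 0.0504) and Zfhx4 had 8 and 6 (adjusted p = 0.0547). Isl1, a homeobox gene read in the controls, had 45 and 39 reads with DMSO and 20 and 10 with azacytidine (adjusted p = 0.079). All of these were chosen after their values were seen.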
